A study of Mus musculus with 12 samples.

Results

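The cell cycle and DNA replication genes described here are 44 listed genes, found by symbol among the 22151 genes of the deposited table, and all 44 had values in every library and entered the test of 17012 genes. Of these, 25 are mitotic members, which act mainly in G2 phase and in mitosis, and 19 are replication members, which act mainly at the entry to S phase and in DNA synthesis. Bulk RNA sequencing measured them in epididymal white adipose tissue, a visceral fat depot beside the testis, of 12 male mice aged 12 to 14 weeks. The strain is C57bl6 in the sample labels and C57BL6/J in the series design, and the labels name no transgene, deletion or drug. The 4 sham mice had a laparotomy with the liver left whole, and the labels do not say on which day they were sampled. The other mice lost 70% of the liver by partial hepatectomy, after which the remaining liver regrows, and were sampled on day 3 (5 mice) or day 7 (3 mice). By its title the series is about Yap1 in the liver and the loss of body mass and muscle in repair and cachexia, and the comparisons set fat of mice with a regrowing liver against fat of sham mice.

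Cells that commit to division switch on 2 waves of genes. The earlier wave is driven by E2F transcription factors and supplies the licensing factors, the MCM helicase, the sliding clamp and the enzymes that make deoxynucleotides. The later wave is driven by B-MYB and FOXM1 on the MuvB complex, which binds the promoter element called CHR, often beside CCAAT boxes bound by NF-Y, and it supplies the cyclins, kinases, kinesins and kinetochore proteins of mitosis. The gene of B-MYB, Mybl2, is counted among the replication members here, so the split of members by phase is approximate. Mature fat cells are largely out of the cell cycle, and the dividing cells of a fat depot are known to include progenitors, endothelial cells and macrophages. In bulk tissue, fewer cells of a dividing type and less RNA per cell cannot be told apart.

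The promoters of both classes are shown because their letters do not depend on the expression values, and motif frequencies differed between the classes. RefSeq promoter windows (build GRCm38.p6, 250 bases before to 50 after each start) matched 36 of the 44 members, 20 mitotic and 16 replication members. The windows of Aurkb, Foxm1, Mcm4, Ccne2, Ccna2, Kif20a, Tpx2 and Gins2 are not shown. Below are the 200 bases before the start of 3 mitotic members with a CHR there and of 3 MCM genes with an E2F motif there, each written 5′ to 3′ along the gene. Capitals mark a match on either strand to 1 of 3 motifs. The CHR was searched as TTTGAA. The letters of the CCAAT box are those of its name, and the E2F motif was searched in 4 spellings, which are TTTCCCGC, TTTCGCGC, TTTGCCGC and TTTGGCGC.
Mki67 (chr7:135716380-135716579, minus strand): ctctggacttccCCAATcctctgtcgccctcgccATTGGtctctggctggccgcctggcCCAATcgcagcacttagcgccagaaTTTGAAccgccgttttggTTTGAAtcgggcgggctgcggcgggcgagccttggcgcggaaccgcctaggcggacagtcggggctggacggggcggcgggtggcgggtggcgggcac
Cdk1 (chr10:69352913-69353112, minus strand): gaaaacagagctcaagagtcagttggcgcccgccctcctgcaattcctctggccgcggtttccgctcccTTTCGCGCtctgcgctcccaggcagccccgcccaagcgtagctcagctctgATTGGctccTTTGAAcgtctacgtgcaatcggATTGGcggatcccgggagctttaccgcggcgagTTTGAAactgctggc
Top2a (chr11:99024190-99024389, minus strand): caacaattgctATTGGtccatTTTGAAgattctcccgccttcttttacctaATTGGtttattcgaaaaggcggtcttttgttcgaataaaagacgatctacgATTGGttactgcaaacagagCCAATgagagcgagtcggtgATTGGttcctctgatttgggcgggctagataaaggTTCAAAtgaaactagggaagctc
Mcm5 (chr8:75109309-75109508, plus strand): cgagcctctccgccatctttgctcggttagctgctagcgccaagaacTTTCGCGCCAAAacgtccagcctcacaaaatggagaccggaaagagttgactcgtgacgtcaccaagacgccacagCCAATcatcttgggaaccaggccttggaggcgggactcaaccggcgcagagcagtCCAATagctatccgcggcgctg
Mcm6 (chr1:128359706-128359905, minus strand): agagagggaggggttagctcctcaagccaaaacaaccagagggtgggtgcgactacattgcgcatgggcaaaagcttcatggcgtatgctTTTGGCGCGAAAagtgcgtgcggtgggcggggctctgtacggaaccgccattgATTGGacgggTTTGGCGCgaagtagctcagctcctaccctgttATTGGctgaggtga
Mcm7 (chr5:138171884-138172083, minus strand): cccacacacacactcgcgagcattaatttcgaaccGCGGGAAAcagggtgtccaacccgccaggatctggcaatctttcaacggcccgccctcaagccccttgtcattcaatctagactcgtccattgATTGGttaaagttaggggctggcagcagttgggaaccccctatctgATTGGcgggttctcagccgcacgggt

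A CHR was present in 14 of 20 mitotic windows (70%) and in 2 of 16 replication windows (12.5%), against 18.1% of the 27025 genes in the promoter table. All 14 of those mitotic windows also held a CCAAT box, a pair found in 7.12% of all genes. CCAAT boxes alone were present in 17 of 20 mitotic windows (85%), 9 of 16 replication windows (56.2%) and 37.9% of all genes. The E2F letters showed the other order, with 6 of 16 replication windows (37.5%), 1 of 20 mitotic windows (5%) and 2.32% of all genes. That 1 mitotic window is the one of Cdk1, shown above with 2 CHRs, 2 CCAAT boxes and an E2F motif. In the windows of the 36 members, matches to different motifs overlapped in 1 place. These matches describe letters and not binding, and the CHR and CCAAT letters are short enough to occur often by base composition.

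**Figure D1:**
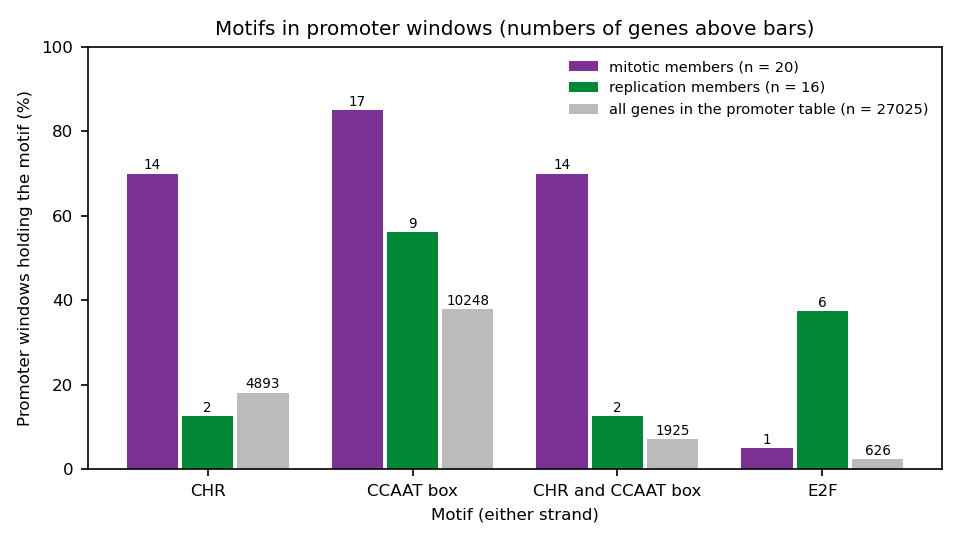
Bars show the percentage of RefSeq promoter windows (y axis, %) that held each motif on either strand (x axis) for 20 mitotic members, 16 replication members and all 27025 genes of the promoter table, with the number of genes above each bar. The CHR bar is highest for the mitotic members (70%) and the E2F bar for the replication members (37.5%).

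The 12 libraries held 13128832 to 23474247 counts in total, and levels are given as CPM, counts relative to the size of their library, which was scaled by TMM (trimmed mean of M values). Each library is labelled as a separate numbered animal. Adipocyte markers (8 of 8 measured) summed to 14930 to 27050 CPM, of which Fabp4 alone gave 5804 to 19560 CPM. Adipoq ranged from 328 CPM in day 7 library 1 to 4331 CPM in day 3 library 5. Plin1 ranged from 312 to 1807 CPM in the same libraries. In overall expression day 3 library 5 was nearest to day 7 library 2, day 7 library 3 to sham library 2 and day 7 library 1 to day 3 library 2. Sham library 4 held 2315 CPM of the hepatocyte transcript Alb, and day 3 library 1 carried 359 CPM of Xist and 0.643 CPM of the Y-linked Ddx3y against the male label. All 12 libraries entered the main test, and values without these 2 libraries stand beside the first counts below.

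Animals of the same group differed widely in these genes. Sham library 1 was the highest of the 12 libraries for 25 of 25 mitotic and 19 of 19 replication members, while 13.6% of all tested genes were highest there. As an average over genes of log2 CPM minus the gene's own mean over the 12 libraries, the mitotic members stood at 3.36, 1.63, -1.26 and -0.14 in sham libraries 1 to 4. They stood at -1.42, -0.24, 0.80, -0.81 and -1.203 in day 3 libraries 1 to 5, and at -0.91, -1.67 and 1.86 in day 7 libraries 1 to 3. The replication members stood at 1.98, 0.69, -0.96 and -0.41 in the sham libraries, at -0.69, -0.36, 0.35, -0.16 and -0.56 in the day 3 libraries and at -0.37, -0.60 and 1.09 in the day 7 libraries. Both classes thus had the same 4 libraries above 0 in the same order, namely sham 1, day 7 library 3, sham 2 and day 3 library 3, and each group contained both high and low animals.

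**Figure D2:**
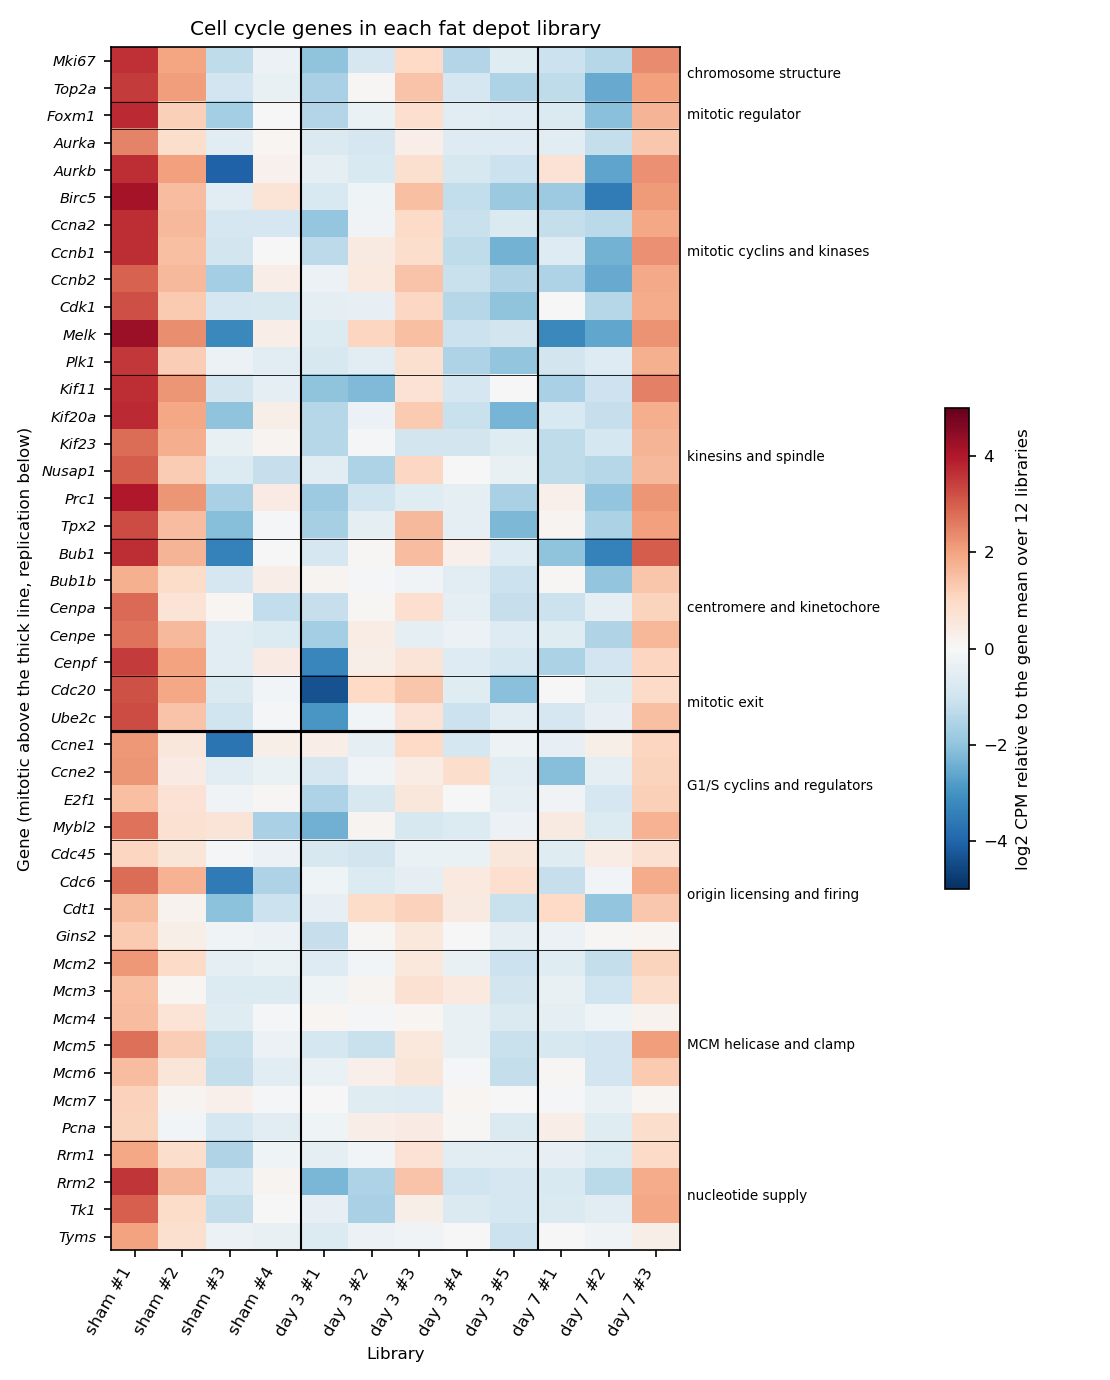
Each row is 1 of the 44 members, ordered by role, and each column is 1 library, with color giving log2 CPM relative to the gene's mean over the 12 libraries. The columns of sham library 1, sham library 2 and day 7 library 3 are red in most rows, and the colors are paler in the replication rows than in the mitotic rows.

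The summed level showed the spread in plain units. Over the 25 mitotic members it was 1281, 379, 59.0 and 103 CPM in the 4 sham libraries, 46.3, 101, 226, 65.0 and 54.6 CPM in the 5 day 3 libraries and 71.2, 41.8 and 448 CPM in the 3 day 7 libraries. Over the 19 replication members it was 850, 362, 166 and 203 CPM in sham, 199, 254, 351, 251 and 170 CPM on day 3 and 244, 175 and 495 CPM on day 7. Sham library 1 alone held between 48.1% and 79.1% of the sham total of a mitotic member (median 70.6%) and between 39.1% and 72.1% of that of a replication member (median 56.02%). Its level was 1.32 to 4.12 times that of the next highest library for the mitotic members (median 2.66) and 1.17 to 3.33 times for the replication members (median 1.90). That next library was day 7 library 3 for 19 mitotic and 15 replication members, and sham library 2 for 6 and 2.

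Mitotic members moved further than replication members in the same libraries. The SD of log2 CPM over the 12 libraries had a median of 1.74 (1.04 to 2.38) for mitotic and 0.94 (0.46 to 1.74) for replication members, against 0.57 for all tested genes. The mitotic mean exceeded the replication mean by 1.38 in sham library 1, 0.94 in sham library 2, 0.77 in day 7 library 3, 0.46 in day 3 library 3, 0.28 in sham library 4 and 0.12 in day 3 library 2. It was lower by 0.31 to 1.07 in the other 6 libraries, with the lowest difference, -1.07, in day 7 library 2. These differences are a description of these libraries, since all members share the same RNA.

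**Figure D3:**
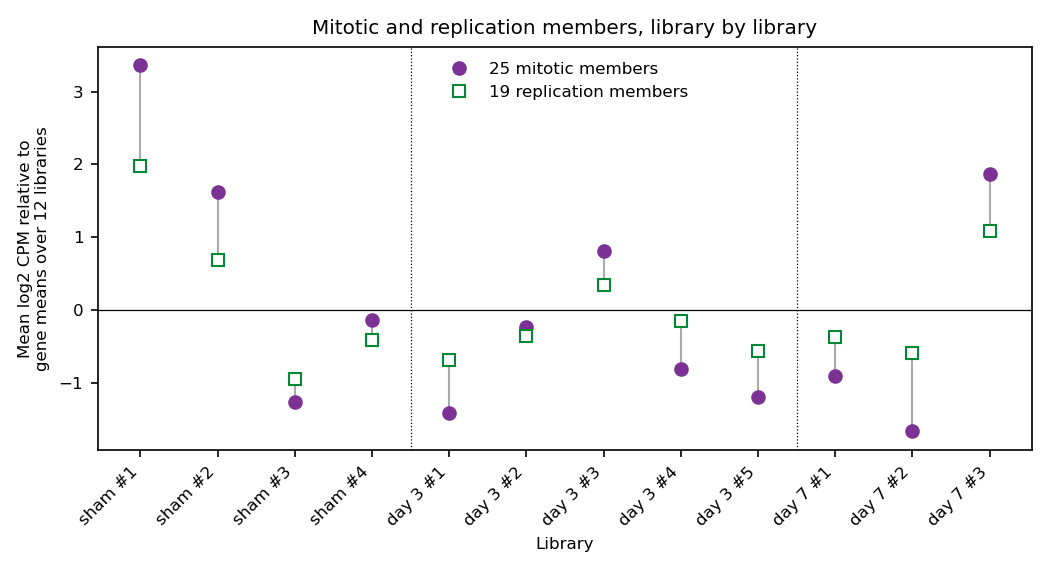
For each library (x axis) a filled circle gives the mean of the 25 mitotic members and an open square that of the 19 replication members, as log2 CPM relative to the gene means over 12 libraries (y axis). The circle lies above the square in the 4 highest libraries and below it in the lowest ones, from 1.38 above in sham library 1 to 1.07 below in day 7 library 2.

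Within groups the same animals stood out member by member. Sham library 1 lay above the other 3 sham libraries for all 44 members, with a median log2 distance from their mean of 3.40 for mitotic and 2.12 for replication members. Day 7 library 3 lay above the other 2 day 7 libraries for all 44 members, with medians of 2.99 and 1.69. Day 3 library 3 lay above the other 4 day 3 libraries for 21 of 25 mitotic and 13 of 19 replication members, with medians of 1.89 and 0.92. At the low end, sham library 3 was below the rest of its group for 20 mitotic and 14 replication members.

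At day 3 after hepatectomy 43 of the 44 members had a lower fitted level than in sham, and no member passed the test. The median log2 difference was -2.34 for mitotic and -0.83 for replication members, against -0.02 for all tested genes. Negative differences made up 51.7% of all tested genes, and the 1 member with a positive difference was the licensing factor Cdt1 (0.15, SE 0.768). By edgeR's quasi-likelihood test with Benjamini-Hochberg adjustment over all genes, 0 of 44 members were called lower or higher (adjusted p 0.403 to 0.966), and the background was 0.00588% of genes called lower and 0% called higher. At an unadjusted p under 0.05, 13 mitotic and 6 replication members were lower and 0 members were higher, against 4.97% of all genes lower and 5.9% higher. DESeq2 called 1 member, Prc1, and limma-voom called 0.

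The members vary together from animal to animal, so the 43 negative signs are not 43 separate observations. No member had day 3 and sham ranges that did not overlap (0 of 44, against 2.14% of all genes with day 3 wholly below sham and 1.58% wholly above). For all 25 mitotic members and 17 of 19 replication members, the highest day 3 library lay above sham library 3. For 23 mitotic and 12 replication members all 5 day 3 libraries lay below sham library 2. Without sham library 1 the medians were -0.82 for mitotic and -0.25 for replication members, and 25 of 25 and 13 of 19 members were negative. In that fit 2 members kept an unadjusted p under 0.05, against 19 with all libraries. Sham library 1 was the highest of its group for all 44 members, so leaving it out lowers the sham level. Without sham library 4 (high Alb) and day 3 library 1 (high Xist) the medians were -2.47 and -1.02, with 43 of 44 members negative.

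**Figure D4:**
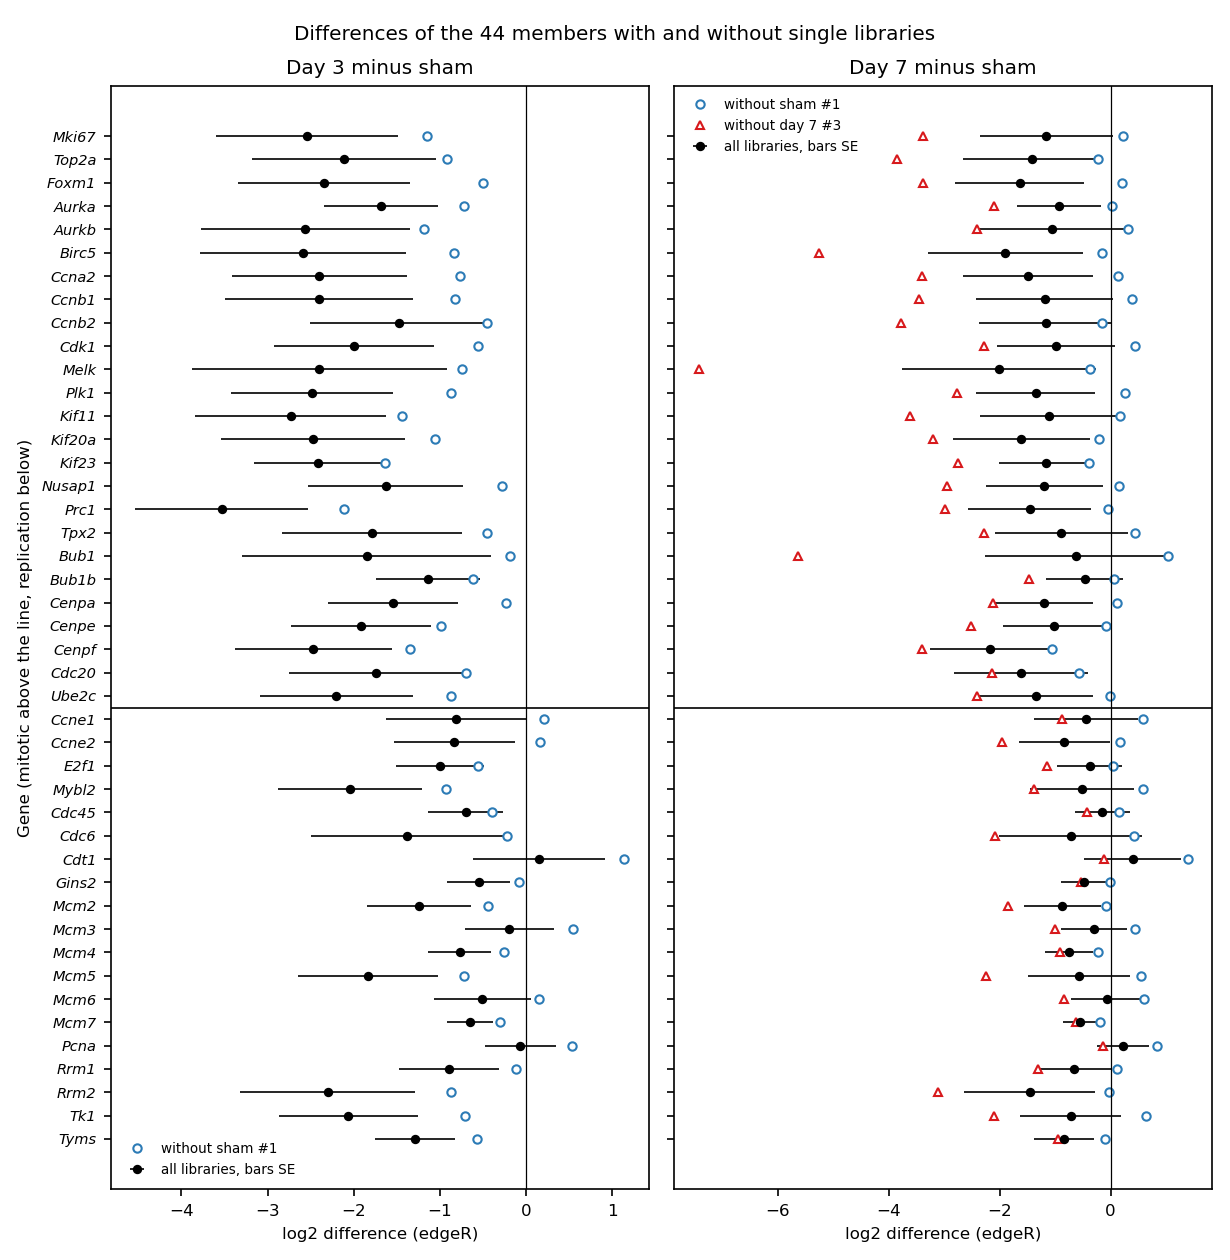
Filled points give each member's edgeR log2 difference from sham (x axis) with bars of 1 SE for day 3 (left) and day 7 (right), and open symbols give the value without sham library 1 (circles) or without day 7 library 3 (triangles). Leaving out sham library 1 shifts the mitotic median from -2.34 to -0.82 on day 3 and from -1.1955 to 0.065 on day 7.

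The chromosome proteins among the mitotic members are Mki67 and Top2a. Mki67, which coats mitotic chromosomes and is the standard proliferation marker, stood at 191, 58.7, 6.10 and 12.3 CPM in sham libraries 1 to 4, at 3.65, 8.38, 30.4, 5.40 and 9.74 CPM in day 3 libraries 1 to 5 and at 6.99, 5.55 and 77.4 CPM in day 7 libraries 1 to 3. Its lowest library still held 51 counts, so the low values are measured and not at the detection limit. The sham and day 3 ranges overlapped, and the log2 difference of -2.54 (SE 1.06, edgeR adjusted p = 0.428) became -1.15 without sham library 1. Top2a, the topoisomerase that untangles sister chromatids, followed the same animals with 126, 47.3, 5.57 and 8.51 CPM in sham, 3.502, 11.5, 29.6, 6.04 and 3.71 CPM on day 3 and 4.54, 1.85 and 46.3 CPM on day 7. Its day 3 difference was -2.11 (SE 1.07, edgeR adjusted p = 0.482).

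Foxm1, the transcription factor of the mitotic wave, stood at 70.4, 11.9, 1.496 and 5.21 CPM in sham, at 1.79, 4.10, 9.34, 3.52 and 3.25 CPM on day 3 and at 3.09, 1.12 and 17.3 CPM on day 7. Sham library 1 stood apart even from sham library 2 here, and without it the day 3 difference went from -2.34 to -0.49.

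Prc1 and Kif23, both of the spindle midzone, had the smallest p-values of the mitotic members on day 3. Prc1, which bundles the antiparallel microtubules of the spindle midzone, stood at 87.1, 24.9, 1.68 and 7.22 CPM in sham, at 1.43, 2.63, 3.44, 3.87 and 1.66 CPM on day 3 and at 6.37, 1.26 and 25.4 CPM on day 7. The 5 day 3 libraries lay close together, at 2.61 ± 1.07 CPM (SD, n = 5), and 3 of the 4 sham libraries lay above all of them while sham library 3 lay among them. The log2 difference was -3.53 (SE 1.00), with an edgeR adjusted p of 0.403 and a DESeq2 adjusted p of 0.0163, and -2.11 without sham library 1. In the authors' deposited table Prc1 was the 1 member under a false discovery rate of 0.05 on day 3 (log2 ratio -3.54, false discovery rate 0.00847), where 0.264% of genes were lower at that threshold and 0.3% higher.

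Kif23, the kinesin of the central spindle that works with Prc1 in cytokinesis, stood at 20.5, 10.6, 2.21 and 3.20 CPM in sham, at 1.00, 2.75, 1.495, 1.47 and 1.86 CPM on day 3 and at 1.13, 1.52 and 9.65 CPM on day 7. Of the day 3 libraries only library 2 reached above the lowest sham library. Its difference was -2.41 (SE 0.747, edgeR adjusted p = 0.403), and day 3 library 3, high for most mitotic members, was not the highest of its group for Kif23 or Prc1. The other members of this set are Kif11, which pushes spindle poles apart, Kif20a, a kinesin of cytokinesis, and the spindle assembly factors Tpx2 and Nusap1. Their day 3 differences ran from -2.73 (Kif11) to -1.63 (Nusap1), with edgeR adjusted p-values of 0.426 to 0.533.

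The mitotic cyclins and kinases showed the same animals. Cdk1, the kinase that starts mitosis, stood at 55.9, 15.0, 3.23 and 3.30 CPM in sham, at 4.29, 4.46, 12.1, 2.11 and 1.39 CPM on day 3 and at 5.80, 2.12 and 21.4 CPM on day 7. Ccnb1, its cyclin partner, stood at 47.6, 10.5, 1.85 and 3.66 CPM in sham, at 1.36, 4.95, 6.73, 1.41 and 0.597 CPM on day 3 and at 2.27, 0.595 and 18.1 CPM on day 7. For both genes sham libraries 3 and 4 lay within the day 3 range, and the day 3 differences were -1.99 (SE 0.928) and -2.40 (SE 1.09), with edgeR adjusted p-values of 0.459 and 0.453.

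Plk1, a kinase of spindle assembly and mitotic exit, stood at 35.7, 7.15, 2.39 and 2.01 CPM in sham, at 1.64, 2.02, 5.31, 0.939 and 0.663 CPM on day 3 and at 1.51, 1.85 and 10.6 CPM on day 7. Birc5, the survivin subunit of the chromosomal passenger complex, stood at 50.5, 8.29, 1.80 and 4.44 CPM in sham, at 1.57, 2.32, 7.92, 1.11 and 0.663 CPM on day 3 and at 0.693, 0.132 and 12.3 CPM on day 7. In both genes sham library 1 stood several-fold above the next sham library. Aurkb, the kinase of the same complex, stood at 24.8, 7.97, 0 and 2.12 CPM in sham, at 1.29, 1.04, 3.29, 0.998 and 0.795 CPM on day 3 and at 3.09, 0.198 and 9.32 CPM on day 7. The 0 counts of sham library 3 allow up to 0.180 CPM (3 counts, counting error only). The day 3 differences of Plk1, Birc5 and Aurkb were -2.49 (SE 0.942), -2.59 (SE 1.196) and -2.56 (SE 1.22), with edgeR adjusted p-values of 0.413, 0.458 and 0.465.

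The remaining cyclins and kinases, the cyclins Ccnb2 and Ccna2, the spindle pole kinase Aurka and the kinase Melk, had day 3 differences of -2.40 to -1.48 and edgeR adjusted p-values of 0.418 to 0.595. Among the centromere and kinetochore genes, Cenpf, a kinetochore protein, stood at 35.3, 12.5, 2.04 and 4.08 CPM in sham, at 0.214, 3.73, 4.78, 1.88 and 1.59 CPM on day 3 and at 0.945, 1.52 and 6.497 CPM on day 7. Here sham libraries 3 and 4 lay inside the day 3 range and day 3 library 1 far below the rest of its group. Cenpf, the kinetochore motor Cenpe, the centromeric histone Cenpa and the checkpoint kinases Bub1 and Bub1b had day 3 differences of -2.47 to -1.14. The mitotic exit genes Cdc20 and Ube2c, which serve the anaphase-promoting complex, had differences of -1.74 and -2.20. Bub1 and Melk had 0 counts in sham library 3 and in 1 day 7 library each, and Cdc20 had 1 count in day 3 library 1.

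**Figure D5:**
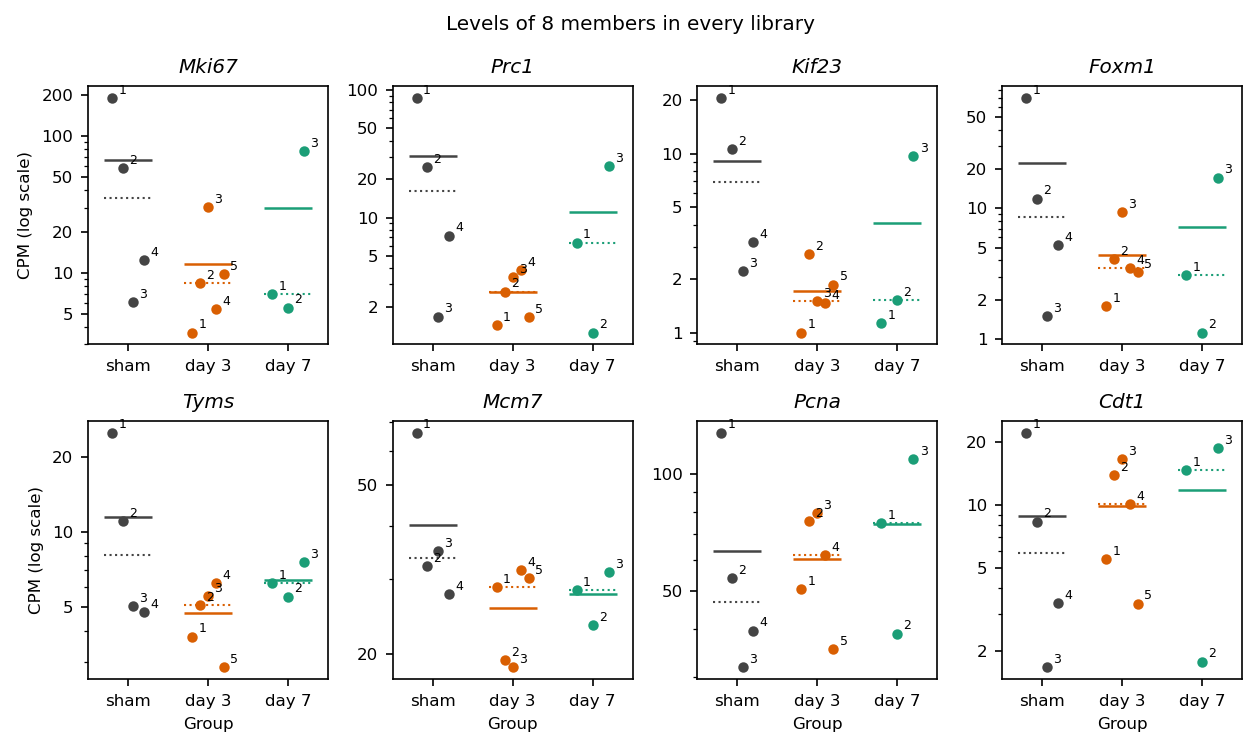
Points give the CPM of 4 mitotic members (top row) and 4 replication members (bottom row) in every library on a log scale, numbered by library within the sham, day 3 and day 7 groups, with solid lines at group means and dotted lines at group medians. Sham library 1 is the highest point in all 8 panels, and the sham mean lies above the sham median in each.

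The replication members gave a mixed picture by role. The genes of nucleotide supply had the lowest differences on day 3 (4 of 4 negative, median -1.68). Tyms, the enzyme that makes thymidylate, stood at 25.1, 11.0, 5.03 and 4.75 CPM in sham, at 3.79, 5.08, 5.53, 6.22 and 2.85 CPM on day 3 and at 6.24, 5.49 and 7.55 CPM on day 7. Its day 3 difference of -1.29 (SE 0.466, edgeR adjusted p = 0.409) had the smallest p of the replication members, with sham libraries 3 and 4 inside the day 3 range. Tk1, the thymidine salvage kinase, stood at 41.2, 9.94, 2.15 and 5.00 CPM in sham, at 3.79, 1.59, 6.35, 3.05 and 2.72 CPM on day 3 and at 3.09, 3.57 and 19.9 CPM on day 7. Its difference was -2.06 (SE 0.808, edgeR adjusted p = 0.418).

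Rrm2, the regulated subunit of ribonucleotide reductase, stood at 61.6, 15.6, 2.69 and 5.57 CPM in sham, at 0.929, 1.65, 13.9, 2.46 and 2.78 CPM on day 3 and at 2.96, 1.92 and 18.5 CPM on day 7. It varied as widely as a mitotic member (SD of log2 CPM 1.74) and had a day 3 difference of -2.30 (SE 1.02, edgeR adjusted p = 0.446). Rrm1, the large subunit of the same enzyme, varied less (0.94), with a day 3 difference of -0.89 (SE 0.578).

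The MCM helicase and the clamp spanned a wide range. Mcm5 stood at 54.2, 18.5, 3.59 and 6.501 CPM in sham, at 4.22, 3.61, 11.5, 6.10 and 3.58 CPM on day 3 and at 4.54, 4.03 and 33.5 CPM on day 7. Mcm2 stood at 46.4, 19.8, 7.36 and 8.05 CPM in sham, at 6.504, 9.36, 14.6, 7.92 and 4.84 CPM on day 3 and at 6.68, 4.43 and 22.4 CPM on day 7. The day 3 differences of Mcm5 and Mcm2 were -1.84 (SE 0.812) and -1.24 (SE 0.599), with edgeR adjusted p-values of 0.446 and 0.468. Mcm4 stood at 57.4, 31.6, 13.0 and 18.7 CPM in sham, at 21.4, 18.6, 21.4, 15.3 and 11.9 CPM on day 3 and at 14.4, 17.2 and 22.2 CPM on day 7. Mcm7 had the lowest SD of log2 CPM of all 44 members (0.46), with 66.3, 32.2, 35.0 and 27.6 CPM in sham, 28.7, 19.3, 18.6, 31.4 and 30.2 CPM on day 3 and 28.2, 23.4 and 31.2 CPM on day 7. The 6 subunits form 1 ring, yet day 3 library 3 was high for Mcm5, Mcm3 and Mcm6 and the lowest of all libraries for Mcm7.

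The day 3 differences of Mcm4 and Mcm7 were -0.77 (SE 0.367) and -0.65 (SE 0.267), and those of Mcm3 and Mcm6 were -0.19 (SE 0.518) and -0.50 (SE 0.567). Pcna, the sliding clamp of DNA polymerases, stood at 128, 54.02, 31.8 and 39.6 CPM in sham, at 50.5, 75.5, 79.5, 62.0 and 35.5 CPM on day 3 and at 75.0, 38.9 and 109 CPM on day 7. Its day 3 libraries lay within the sham range, and its day 3 difference of -0.06 (SE 0.414, edgeR adjusted p = 0.966) was 0.53 without sham library 1. In 4 of the 5 day 3 libraries Pcna was above sham libraries 3 and 4.

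The licensing factors Cdt1 and Cdc6 had fitted day 3 differences of opposite sign. Neither was called, and they were not tested against each other. Cdt1, which loads the helicase on origins, stood at 22.2, 8.34, 1.68 and 3.41 CPM in sham, at 5.50, 13.9, 16.6, 10.2 and 3.38 CPM on day 3 and at 14.8, 1.78 and 18.8 CPM on day 7. Day 3 libraries 2, 3 and 4 stood above 3 of the 4 sham libraries. The sign of its day 3 difference turned on single libraries, from 1.14 without sham library 1 (edgeR adjusted p = 0.62) to -0.19 without sham library 3. Cdc6, its partner in loading, stood at 9.49, 4.51, 0 and 0.361 CPM in sham, at 1.07, 0.734, 0.897, 1.82 and 2.39 CPM on day 3 and at 0.504, 1.12 and 4.92 CPM on day 7. Its day 3 libraries lay between the high and the low sham libraries, with a difference of -1.38 (SE 1.12). The firing factors Cdc45 and Gins2 had differences of -0.70 (SE 0.436) and -0.55 (SE 0.367).

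Ccne1, the cyclin of S phase entry, stood at 13.3, 4.25, 0.120 and 3.46 CPM in sham, at 3.57, 1.96, 5.75, 1.47 and 2.39 CPM on day 3 and at 2.08, 3.505 and 6.04 CPM on day 7. The level of sham library 3 rests on 2 counts, and the day 3 difference of -0.81 (SE 0.815) was 0.21 without sham library 1. E2f1, an activator of the replication wave, stood at 23.1, 13.3, 7.12 and 8.46 CPM in sham, at 2.72, 4.53, 11.8, 7.92 and 5.70 CPM on day 3 and at 7.06, 4.50 and 18.4 CPM on day 7. Mybl2, which encodes B-MYB, stood at 11.4, 2.90, 2.69 and 0.464 CPM in sham, at 0.214, 1.83, 0.897, 0.998 and 1.33 CPM on day 3 and at 2.33, 0.992 and 5.84 CPM on day 7. The day 3 differences of E2f1, Mybl2 and the second cyclin E gene Ccne2 were -0.99 (SE 0.509), -2.04 (SE 0.836) and -0.83 (SE 0.706), and the edgeR adjusted p-values were 0.426 to 0.671.

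On day 7 the 3 animals split, 1 high and 2 low, and no difference from sham was called. The median log2 difference was -1.1955 for mitotic and -0.55 for replication members, with 25 of 25 and 17 of 19 members negative against 49.3% of all genes. By edgeR's test 0 of 44 members were called (0% of all genes lower and 0% higher), 0 members had an unadjusted p under 0.05 (2.75% of all genes lower, 3.51% higher), and 0 were called by DESeq2 or limma-voom. The smallest p-values belonged to Cenpf (-2.18, SE 1.09, edgeR adjusted p = 0.826) and Foxm1 (-1.64, SE 1.16) among mitotic members and to Mcm7 (-0.55, SE 0.309) and Mcm4 (-0.75, SE 0.427) among replication members. The 2 positive members were Cdt1 (0.40, SE 0.868) and Pcna (0.23, SE 0.470). Ranges overlapped for all 44 members, where 4.07% of all genes had day 7 wholly below sham and 2.83% wholly above.

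The day 7 medians changed with single animals. Without sham library 1 they were 0.065 for mitotic and 0.17 for replication members, with 17 of 44 members negative. Without day 7 library 3 they were -2.98 and -0.998, with 44 of 44 negative and 0 called. Both left-out libraries were the highest of their group for all 44 members. Leaving either out therefore lowers the level of its group. The authors' deposited table likewise held 0 members under a false discovery rate of 0.05 on day 7 (0.091% of genes lower, 0.136% higher).

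From day 3 to day 7 the fitted differences were positive for 42 of 44 members and none was called. The medians were 0.86 for mitotic and 0.37 for replication members, and 47.2% of all genes were negative. EdgeR called 0 members (0% of all genes lower and 0% higher), 0 had an unadjusted p under 0.05 (1.64% of all genes lower, 1.7% higher), and DESeq2 and limma-voom called 0. No member had day 3 and day 7 ranges apart, against 1.37% of all genes with day 7 wholly below day 3 and 1.35% wholly above. Prc1 (2.07, SE 1.02), Kif23 (1.25, SE 0.786), Mybl2 (1.53, SE 0.884) and Tk1 (1.34, SE 0.854) had the smallest p-values of their classes, each with an edgeR adjusted p of 0.999. Without day 7 library 3, the highest of its group for all 44 members, the medians were -0.72 and -0.15, with 37 of 44 members negative. This comparison and the one of day 3 with sham share the day 3 libraries, and those with sham share the sham libraries, so their values are not separate evidence.

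Other genes of the pathway were listed with earlier results of these data known. The 60 further mitotic genes summed highest in sham 1, day 7 library 3, sham 2 and day 3 library 3 (1897, 773.5, 739 and 529.5 CPM). The sums of the 44 further replication genes were highest in the same libraries (1194, 623, 515 and 518 CPM). Single genes differed, as the mitotic gene Hjurp was lowest of all in day 7 library 3 (87.2 CPM). Of the 60 further mitotic genes 59 were negative on day 3 (median -1.86), and 19 were lower at an unadjusted edgeR p under 0.05. Of the 44 further replication genes 42 were negative (median -0.69), and 11 were lower at that p. Among all tested genes 51.7% were negative and 4.97% were lower at that p. EdgeR called 0 genes of either list, against 0.00588% of all genes called lower. On day 7 against sham 59 of 60 and 41 of 44 were negative, against 49.3% of all genes, with medians of -1.10 and -0.48. Anln, the anillin of the cleavage furrow, stood at 95.1, 48.4, 19.7 and 36.7 CPM in sham, at 8.43, 15.2, 21.1, 12.0 and 20.7 CPM on day 3 and at 7.62, 10.1 and 30.0 CPM on day 7. Its day 3 difference was -1.69 (SE 0.486, edgeR adjusted p = 0.403), and the ranges overlapped through sham library 3. Ung, the uracil-DNA glycosylase that removes uracil from DNA, stood at 23.4, 14.6, 13.4 and 7.74 CPM in sham, at 5.86, 6.05, 5.31, 5.81 and 8.02 CPM on day 3 and at 4.29, 6.02 and 8.07 CPM on day 7. It had a small spread within the hepatectomy groups and a day 3 difference of -1.25 (SE 0.321, edgeR adjusted p = 0.403).

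Of the G1 cyclins, kinases and pocket proteins, 17 of 24 were negative on day 3 (70.8%, against 51.7% of all genes, median -0.17) and 15 of 24 on day 7 (62.5%, against 49.3%, median -0.13), and 0 were called. Their summed level was 1037 to 1165 CPM in sham, 856 to 1085 CPM on day 3 and 770 to 1173 CPM on day 7. Ccnd3, a cyclin D, stood at 178, 118, 119 and 131 CPM in sham, at 62.6, 63.8, 72.2, 71.5 and 132 CPM on day 3 and at 51.4, 112 and 101 CPM on day 7. Day 3 libraries 1 to 4 lay below all sham libraries and library 5 among them (-0.77, SE 0.277, edgeR adjusted p = 0.409). Of the 6 tested CDK inhibitors 5 were negative on day 3 and 0 were called. The exception was Cdkn1a, which encodes p21, an inhibitor of cyclin-dependent kinases induced by p53. It stood at 34.3, 46.6, 55 and 9.86 CPM in sham, at 195, 248, 130, 177 and 51.3 CPM on day 3 and at 274, 26.9 and 40.2 CPM on day 7. Day 3 libraries 1 to 4 and day 7 library 1 were above every sham library, and the day 3 difference was 2.14 (SE 0.720, edgeR adjusted p = 0.403).

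Outside these lists, the genes whose log2 CPM was most like the mitotic mean over the 12 libraries were Cip2a (Pearson's r 0.974), Stmn1 (0.974), Prr11 (0.969), Pclaf (0.959), Gen1 (0.957), Kntc1 (0.955), Fignl1 (0.951), Asf1b (0.948), As3mt (0.943) and Ikbke (0.941). Stmn1, the microtubule regulator stathmin, stood at 97.1, 25.7, 8.08 and 13.3 CPM in sham, at 4.00, 6.91, 18.1, 5.87 and 3.51 CPM on day 3 and at 6.11, 3.57 and 41.4 CPM on day 7. Without sham library 1 the 10 values of r were 0.895 to 0.958, and the libraries these points share make this a description. Pttg1, the securin gene, was the single gene called lower on day 3. It stood at 32.4, 31.2, 28.6 and 37.5 CPM in sham, at 2.43, 3.30, 5.23, 3.17 and 3.05 CPM on day 3 and at 28.6, 29.9 and 6.56 CPM on day 7. Its 5 day 3 libraries had the same order as the mitotic mean, while in sham it was not highest in library 1, and on day 7 it was lowest in library 3, where the mitotic mean was highest.

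Some markers of other cells were high in some of the high libraries and not in others. Macrophage markers (8 of 8 with values) had their highest sum, 5244 CPM, in day 7 library 3 and the next, 2913 CPM, in sham library 2. Lyz2 alone gave 3260 and 1806 CPM of these sums. Adgre1 was also highest in day 7 library 3 (206 CPM) and next in sham library 2 (128 CPM). Cd68 was highest in day 7 library 3 (405 CPM), but sham library 2 (152 CPM) lay below day 3 libraries 1 to 4 (187 to 265 CPM). In sham library 1 the macrophage sum was 1813 CPM, inside the 980 to 2624 CPM of the other 9 libraries. B cell markers (6 of 8 with values) summed to 28.4 CPM in sham library 1, against 2.95 to 11.0 CPM in the other sham libraries, 0.715 to 4.04 CPM on day 3 and 1.39 to 5.05 CPM on day 7. Plasma cell markers (5 of 6) summed to 245, 21.3, 209 and 252 CPM in sham libraries 1 to 4, to 5.46 to 164 CPM on day 3 and to 13.9, 376 and 58.5 CPM on day 7. Ighm alone gave 335.3 CPM of the sum in day 7 library 2, where Igkc stood at 33 CPM against 82.7 CPM in sham library 1. T and NK cell markers (8 of 12) had their highest sum, 38.9 CPM, in day 7 library 3, and 10.4 CPM in sham library 1. Il7r made up 36.75 CPM of that highest sum, and Cd3e and Trac were at 0 in that library.

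Neutrophil markers (7 of 8) ranged from 9.55 to 255 CPM in sham, with the highest value in sham library 1, and from 8.35 to 237 CPM on day 3. On day 7 they summed to 578, 13.8 and 22.4 CPM in libraries 1 to 3. Of the thymocyte markers 5 of 6 carried no per-sample values. The same held for 8 of 9 male germ cell and 8 of 8 epididymis markers, the tissues that lie beside this depot. Adipose progenitor markers (8 of 8) summed to 2962 CPM in sham library 1 and 3206 CPM in day 7 library 3, inside the 2575 to 6611 CPM of the other libraries. Dcn alone gave 5589 CPM of the highest sum, in day 3 library 1. Single markers differed, as in sham library 1 Cd34 was the highest of all libraries (338 CPM) and Dcn the lowest (1058 CPM). In day 7 library 3 Cd34 was the lowest of all (104 CPM). Endothelial markers (7 of 7) summed to 501 and 486 CPM in these 2 libraries, near the low end of the range of 443 to 1125 CPM. In sham library 2 and day 3 library 3, also high for the members, they summed to 1010 and 1026 CPM, near its upper end. The part of macrophages, B cells and neutrophils in the levels of the members was not tested.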

How the data were processed

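Poly(A) RNA per the labels' protocols (total RNA in the series design) from epididymal fat of 12 mice was sequenced. The submitters' processing notes name Partek, STAR, DESeq2 and build mm39. Strandedness is not given in the sources used here. Per the file headers the authors deposited raw counts, which are partly fractional (28.5% to 39.6% of values per library were not whole) and were handled like expected counts, that is rounded to whole numbers. The authors also deposited normalized counts (a signal per gene), summary scores (total, maximum and means), and p-values and log2 ratios of each time against sham. The per-sample rows of the deposited table were not aligned with its gene rows. Each of 18086 lines was therefore given to a gene by its mean and its maximum over libraries (relative tolerance 3e-05). Its geometric mean had to fit as well (tolerance 0.01). A single gene fitted 18070 lines. The other 16 were placed between the genes of the neighbouring lines, at a tolerance of 0.001 where no gene fitted. Where several candidates lay there, the first was taken. In the result 0 lines were out of gene order, which those 16 could not be by the way they were placed. All per-sample columns were mapped to samples. Of the 22151 genes, 4065 had no such line and held 0.0784% of the summed mean.

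The main test was edgeR 4.0.16 (robust quasi-likelihood, R 4.3.3, statmod 1.5.0) on all 12 libraries with TMM scaling, a minimum count of 10 in its expression filter and Benjamini-Hochberg adjustment over 17012 genes, with a threshold of 0.05. It was tested on simulated data. DESeq2 1.42.0, limma-voom (limma 3.58.1), other scalings, no filter, a replicate block and leaving out libraries were alternatives. Log2 CPM used a prior count of 2. Same-numbered libraries had correlated deviations of -0.37 to 0.19, so the numbers were not taken as pairs. The p-values measure the spread between these animals. Floors of 3 counts cover counting error only. The members and gene lists were chosen with earlier results of these data known. Values in every library are given for 20 listed members, for the 2 mitotic and 2 replication members with the smallest p in each comparison, and for some genes of the other lists among the up to 4 with the smallest p and at least 1 CPM. The 10 genes nearest to the mitotic mean were ranked by Pearson's r over 12 libraries.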

Additional observations from a re-analysis of the deposited data

Results flagged for a closer look

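Among 92 checks, of the 44 members and the summed level of each class within the sham and the day 3 group, 14 found a library far from the others of its group. The check set the gap to the nearest library against the range, in CPM. Its chance rate of about 1 in 20 holds for normally distributed values only. That was not tested for these CPM, and the check was not run on log2 values, so the 14 are not read against chance. Sham library 1 stood apart from the other 3 sham libraries in Ccne2 (17.3 CPM), Plk1 (35.7 CPM), Birc5 (50.5 CPM) and Foxm1 (70.4 CPM). Day 3 library 3 stood apart from the other 4 day 3 libraries in 8 mitotic members, namely Mki67 (30.4 CPM), Kif20a (8.82 CPM), Cdk1 (12.1 CPM), Bub1 (3.44 CPM), Aurka (4.78 CPM), Aurkb (3.29 CPM), Birc5 (7.92 CPM) and Tpx2 (16.8 CPM). The same library stood apart in both subunits of ribonucleotide reductase, Rrm1 (40.7 CPM) and Rrm2 (13.9 CPM). The members share their libraries, so these checks are not independent, and the day 7 group is too small for this check.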

How the results depend on the processing

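Over all genes, for day 3 against sham edgeR called 1 gene and DESeq2 121, of which 1 was a member (Prc1, adjusted p = 0.0163). In the comparison of day 7 with sham they called 0 and 68, and in that of both times after surgery 0 and 22. For day 3 against sham, limma-voom, the replicate block and the fit without sham library 4 and day 3 library 1 called 0 genes, and so did each fit that left out 1 library (0 to 0). Leaving out 1 library gave 0 to 3 genes for day 7 against sham and 0 to 4 for day 7 against day 3, the most without day 7 library 1 in both, and 1 without day 7 library 3 in the latter. The medians over such fits were -2.83 to -0.82 (mitotic) and -1.20 to -0.25 (replication) for day 3 against sham, -2.98 to 0.065 and -0.998 to 0.17 for day 7 against sham, and -0.72 to 1.496 and -0.15 to 0.60 for day 7 against day 3. With the replicate block the mitotic median of day 7 against day 3 was -0.042, the reverse of 0.86, and the cause was not tested. For day 3 against sham Pcna was 0.10 with limma-voom, 0.22 with the replicate block and -0.29 to 0.53 with 1 library left out, and Cdc6 was 0.31 with limma-voom. Cdt1 was -0.19 to 1.14 with 1 library left out, and below 0 without sham library 3 (-0.19), sham library 4 (-0.12), day 3 library 2 (-0.01) or day 3 library 3 (-0.12). Ccne1 was -1.21 to 0.21, above 0 without sham library 1. For day 7 against sham, Foxm1 was -3.38 to 0.20 and Mki67 -3.39 to 0.22, both above 0 without sham library 1. For day 7 against day 3, Kif23 was -0.33 to 1.70, Tk1 -0.034 to 1.75 and Mki67 -0.84 to 2.14, each below 0 without day 7 library 3. Other scalings, no filter and the 2 groups alone reversed none of these results.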
